A study of Mus musculus with 8 samples.

Results

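Notch4 was examined together with 9 genes that mark endothelial cells, the cells that line blood vessels, in the posterior trunk of mouse embryos. The 10 genes, Notch4, Kdr, Flt1, Flt4, Cdh5, Pecam1, Tek, Tie1, Emcn and Esam, were taken by symbol from a table of 55573 genes; each symbol matched 1 row, and all 10 passed the filter on low counts that left 16262 genes for testing. The question was whether Notch4 moved by itself or along with the other endothelial genes when Prtg was lost. Prtg encodes protogenin, a cell-surface receptor of the immunoglobulin superfamily. The 3 genotypes of C57BL/6 embryos at embryonic day 9.5 were compared: 3 libraries from Prtg-/- embryos (KO), 3 from Prtg+/- embryos (Het) and 2 from wild-type embryos (WT). All came from crosses between heterozygous parents, and the tissue was what lay behind a division between somites 12 and 13. The labels name neither litters nor the number of embryos per library, so the p-values speak of the spread among these libraries, part or all of which may be technical.

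Notch4 is a transmembrane receptor of the Notch family whose expression is largely restricted to endothelium; ligand binding releases its intracellular domain, which acts with the DNA-binding protein RBPJ. Kdr, Flt1 and Flt4 encode the 3 VEGF receptors, Tek and Tie1 encode the angiopoietin receptor and its relative, Cdh5 and Pecam1 encode adhesion proteins of endothelial junctions, Esam encodes another junctional adhesion molecule, and Emcn encodes a surface sialomucin of capillary and venous endothelium. At this stage the dorsal aortae, cardinal veins and intersomitic vessels of the trunk are being built from endothelial cells of mesodermal origin.

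Sequence upstream of 4 of the genes is shown because it places Notch4, the gene that fell, beside Flt1, Emcn and Kdr, the 3 whose levels varied most over the libraries. RefSeq promoter windows on GRCm38.p6 were found for 7 of the 10 genes: Notch4, Kdr, Flt1, Flt4, Tek, Tie1 and Emcn. Each sequence runs 5′ to 3′ from 250 to 31 bases before the RefSeq start, on the strand of the gene, and capitals mark GGAA on either strand, the core of sites bound by ETS transcription factors, a family used widely in endothelial genes.
Notch4 (chr17:34564045-34564264, plus strand): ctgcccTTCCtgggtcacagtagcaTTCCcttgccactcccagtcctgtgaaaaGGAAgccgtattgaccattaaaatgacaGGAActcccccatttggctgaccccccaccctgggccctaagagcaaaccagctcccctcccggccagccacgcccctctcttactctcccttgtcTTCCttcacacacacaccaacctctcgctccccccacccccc
Kdr (chr5:75978486-75978705, minus strand): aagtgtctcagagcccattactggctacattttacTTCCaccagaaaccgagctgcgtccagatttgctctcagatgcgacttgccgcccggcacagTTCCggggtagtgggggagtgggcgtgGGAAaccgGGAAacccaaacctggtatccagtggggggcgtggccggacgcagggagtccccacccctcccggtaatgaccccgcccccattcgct
Flt1 (chr5:147726042-147726261, minus strand): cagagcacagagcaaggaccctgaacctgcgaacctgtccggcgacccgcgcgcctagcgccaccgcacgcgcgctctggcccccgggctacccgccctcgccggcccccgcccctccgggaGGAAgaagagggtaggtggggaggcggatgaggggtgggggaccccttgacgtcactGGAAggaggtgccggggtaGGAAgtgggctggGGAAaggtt
Emcn (chr3:137340828-137341047, plus strand): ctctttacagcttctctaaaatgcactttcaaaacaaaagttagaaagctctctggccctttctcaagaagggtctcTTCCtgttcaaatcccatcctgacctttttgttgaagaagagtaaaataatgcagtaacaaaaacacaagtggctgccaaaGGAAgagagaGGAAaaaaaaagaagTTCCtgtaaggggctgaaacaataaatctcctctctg
All motifs were searched on both strands. GGAA or its reverse complement TTCC occurred 5 times in the Notch4 window, and 12.1% of all 32851 windows of this length held at least as many. Kdr, Flt1 and Emcn held 4 matches each, a number reached by 25.1% of windows. The longer match AGGAAG, which contains GGAA, was in the windows of Notch4, Flt1, Emcn and Tie1, 4 of 7, against 26.1% of all windows. TGGGAA, the core of the RBPJ site, which also contains GGAA, was in the Kdr window and in 19.4% of all windows, and TGANTCA, the AP-1 site, was in none of the 7 and in 6.12% of all. These matches describe letters in a window and are not evidence of binding.

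Total gene counts lay between 16874860 and 17511964. Prtg RNA was at 237 to 268 CPM in KO, 240 to 282 CPM in Het and 317 and 386 CPM in WT libraries, so KO and Het overlapped; which exons the knockout allele lacks is not given, so these counts say little about genotype. CPM are counts scaled to a common library size with edgeR's TMM method. KO 1-3 stood apart from the other KO libraries: its counts varied from theirs by 21.5 and 24.6 times the counting variance, where the other 5 pairs of 1 genotype gave 4.55 to 9.83. Libraries are named by genotype and the pair of numbers in their column, whose first number, 1 or 2, is called the column set; the sources do not say what it means. KO 1-3, Het 1-1 and WT 1-2 form set 1 and were all high in Xist, the RNA of the inactive X chromosome, as was Het 2-4. The 7 endothelial markers Cdh5, Pecam1, Kdr, Tek, Tie1, Emcn and Esam summed to 328 to 410 CPM in KO, 354 to 405 CPM in Het and 370 and 375 CPM in WT. All 7 are among the 10 genes, so this sum is no separate check of the endothelial label. Of the 6 blood cell markers, Cd48 had 0 reads in all 8 libraries, Ptprc 0 to 3, Spi1 2 to 13 and Csf1r 7 to 19. Runx1 had 49 to 64 reads and Itga2b 149 to 209.

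Notch4 (ENSMUSG00000015468, chromosome 17, 34564268 to 34588503, plus strand, GRCm38) was lower in KO embryos. It was at 28.1 CPM in KO 1-3, 24.2 in KO 2-2 and 27.9 in KO 2-3, against 36.8 CPM in Het 1-1, 36.9 in Het 2-4 and 37.7 in Het 2-5, and 41.2 CPM in WT 1-2 and 40.2 in WT 2-1. Every KO library lay below every Het library, and every Het library below both WT libraries. These levels rest on 413 to 486 reads in KO, 620 to 656 in Het and 688 and 706 in WT. By exact Poisson intervals at 95%, which cover counting error only, the highest upper limit among KO libraries was 30.7 CPM and the lowest lower limit elsewhere was 34.0 CPM. In bulk RNA of this kind, fewer endothelial cells and less RNA per endothelial cell cannot be told apart.

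Set against the average of WT and Het, the genotypes with an intact Prtg allele, Notch4 fell by 0.54 on the log2 scale (SE 0.07, a fold of 0.687, edgeR adjusted p = 0.0159). Its mean was 26.7 ± 2.21 CPM in KO (SD, n = 3) and 38.6 ± 2.03 CPM in WT and Het together (SD, n = 5). It ranked number 13 of 16262 genes by p. Of all tested genes 0.258% were called lower in this comparison and 0.332% in either direction, at a Benjamini-Hochberg adjusted p below 0.05 in edgeR's quasi-likelihood test. The pairwise comparisons, which share these libraries, fell just short: KO minus WT was -0.61 ± 0.09 (edgeR adjusted p = 0.0554) and KO minus Het was -0.48 ± 0.08 (edgeR adjusted p = 0.0518), where 0.0369% and 0.191% of genes were called. With column set as an added term, each set holding all 3 genotypes, both were called: KO minus WT was at -0.60 (edgeR adjusted p = 0.0406) and KO minus Het at -0.48 (edgeR adjusted p = 0.0469). Het minus WT was -0.13 ± 0.09 (edgeR adjusted p = 1.000), in a comparison in which edgeR called 0% of genes, Notch4 had an unadjusted p above 0.05 and DESeq2 called 2 genes, Notch4 not among them.

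The Notch4 call against the mean of WT and Het held on leaving out 1 library in 4 of 8 cases and was lost without Het 1-1 (edgeR adjusted p = 0.0518), Het 2-4 (0.0621), WT 1-2 (0.0748) or WT 2-1 (0.0508), while the log2 value stayed between -0.58 and -0.47. Within column set 1 the KO library lay 0.46 below the mean of the others on the log2 scale, with values of 28.1 CPM in KO 1-3 and 36.8 and 41.2 CPM in Het 1-1 and WT 1-2. Within set 2 the KO libraries lay 0.55 below.

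**Figure D1:**
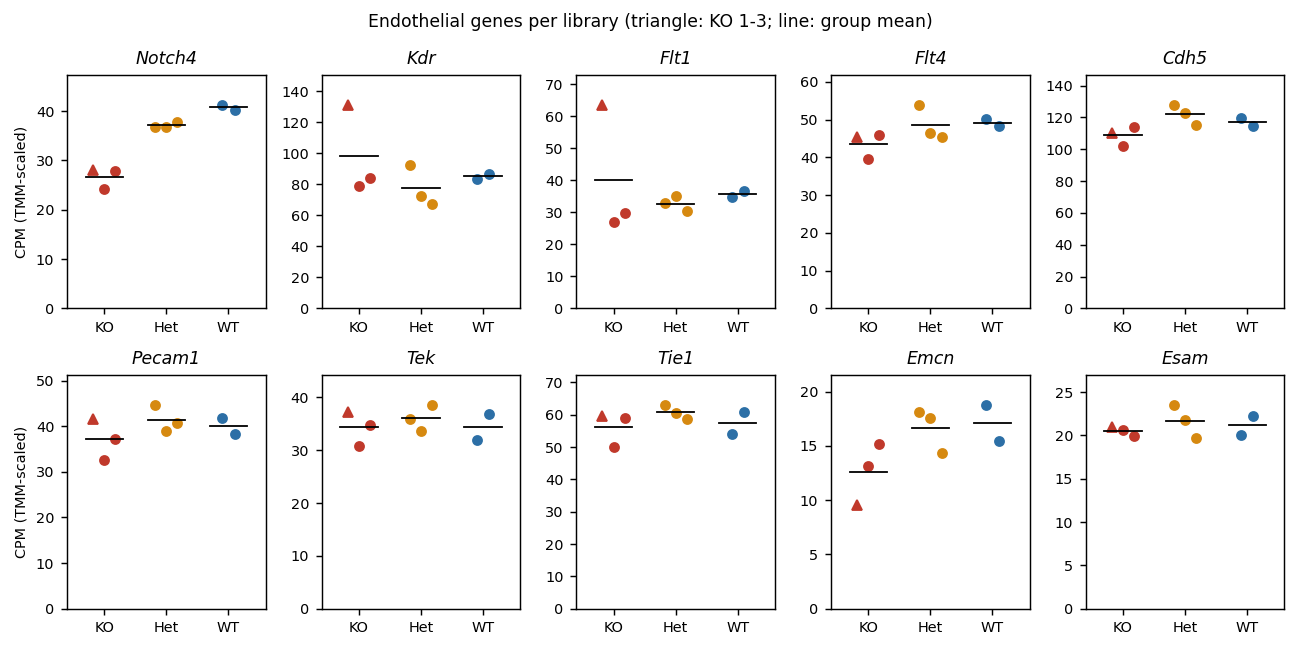
Level of each of the 10 genes in every library, in TMM-scaled CPM from 0, with KO, Het and WT from left to right; points are libraries, the triangle is KO 1-3 and lines are group means. Notch4 runs from 24.2 to 28.1 CPM in KO and from 36.8 to 41.2 CPM elsewhere with no overlap, and KO 1-3 stands high in Kdr and Flt1 and low in Emcn.

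None of the 9 other endothelial genes was called in any of the 4 comparisons. Of all genes, edgeR called at most 0.332% in any of them, so this says little about the 9. Against the mean of WT and Het, edgeR gave 2 of the 9, Cdh5 and Emcn, an unadjusted p below 0.05, both lower, where 5.21% of all genes reached that in this direction and 12% in either. DESeq2 called Notch4 and 0 of the 9, and it called 0.911% of all genes lower. The log2 values of the 9 had a median of -0.07 and 7 of 9 lay below 0, beside a median of 0.01 and 48.4% of values below 0 over all tested genes. They ranged from -0.42 to 0.27. In KO minus WT the 9 had a median of -0.04 and 7 lay below 0; in KO minus Het the median was -0.11 and 7 lay below 0; in Het minus WT it was 0.03 and 4 lay below 0. Over all tested genes 48.7%, 48.7% and 49.6% of values lay below 0 in these 3 comparisons. At an unadjusted p below 0.05 KO minus WT gave Emcn alone, lower, beside 3.38% of all genes in that direction and 7.19% in either. KO minus Het gave Cdh5 and Emcn, both lower, beside 4.8% in that direction and 10.9% in either. Het minus WT gave 0 of the 9, beside 0.885% lower and 1.8% in either direction. DESeq2 called 0 of the 9 in each and called Notch4 lower in KO minus WT and KO minus Het, where it called 0.414% and 0.634% of genes lower, but not in Het minus WT, where it called 0.00616% lower. Groups did not overlap, with the genotype named first lower, for Notch4, Flt4, Cdh5 and Emcn in KO minus WT (10.5% of all genes), for Notch4 and Cdh5 in KO minus Het (8.5%) and for Notch4 in Het minus WT (8.92%).

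Among the junctional adhesion genes, Cdh5, which encodes VE-cadherin, was the most abundant of the 10 per length. Cdh5 (chromosome 8, 104101625 to 104144511, plus strand) was at 110, 102 and 114 CPM in KO, 128, 123 and 115 CPM in Het and 120 and 115 CPM in WT. The KO libraries lay below all others, but KO 2-3, at 114 CPM, came within 1 CPM of WT 2-1, and the log2 value was -0.14 ± 0.06 (edgeR adjusted p = 0.366). Groups that do not overlap in this direction occurred in 4.41% of all genes tested and in Notch4 and Cdh5 among the 10. Pecam1 (chromosome 11, 106654217 to 106750628, minus strand) was at 41.5, 32.7 and 37.1 CPM in KO, 44.6, 38.9 and 40.8 CPM in Het and 41.9 and 38.2 CPM in WT. Esam (chromosome 9, 37528078 to 37538319, plus strand) was at 21.0, 20.7 and 19.9 CPM in KO, 23.5, 21.8 and 19.7 CPM in Het and 20.03 and 22.3 CPM in WT. For Pecam1 (-0.13 ± 0.09) and Esam (-0.06 ± 0.09) the groups overlapped, and Esam varied least of the 10, with 1.19 times between its highest and lowest library.

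The angiopoietin receptor gene Tek and its relative Tie1 had values near 0, and the groups overlapped in both. Tek (chromosome 4, 94739289 to 94874976, plus strand) was at 37.2, 30.8 and 34.8 CPM in KO, 35.9, 33.6 and 38.5 CPM in Het and 31.9 and 36.8 CPM in WT. Tie1 (chromosome 4, 118471191 to 118490061, minus strand) was at 59.6, 49.9 and 59.1 CPM in KO, 62.9, 60.6 and 58.6 CPM in Het and 54.1 and 60.8 CPM in WT. Their log2 values against the mean of WT and Het were -0.04 ± 0.09 for Tek and -0.07 ± 0.07 for Tie1, and both changed sign when 1 library was left out: Tek without KO 2-2 (0.035) or WT 2-1 (0.015) and Tie1 without KO 2-2 (0.0073).

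The VEGF receptors differed among themselves and depended on KO 1-3. Kdr (chromosome 5, 75932827 to 75978458, minus strand), the main signalling receptor for VEGF-A, was at 131, 79.0 and 84.1 CPM in KO, 92.2, 72.4 and 67.5 CPM in Het and 83.6 and 86.8 CPM in WT. Flt1 (chromosome 5, 147561604 to 147726011, minus strand), a receptor that also acts as a decoy for VEGF-A, was at 63.4, 26.9 and 29.7 CPM in KO, 32.7, 35.0 and 30.3 CPM in Het and 34.8 and 36.5 CPM in WT. In both genes KO 1-3 was the highest of the 8 libraries and the other 2 KO libraries lay within or below the range of the rest. The log2 value of Kdr was 0.27 ± 0.15 with all libraries and 0.0065 ± 0.10 without KO 1-3, and that of Flt1 was 0.23 ± 0.23 with all libraries and -0.27 ± 0.09 without KO 1-3 (edgeR adjusted p = 0.328), a change of sign. Vegfa, the ligand of both receptors, was named after its values were seen: it was at 178 CPM in KO 1-3, 79.9 and 82.6 CPM in the other KO libraries, 91.0, 88.0 and 93.2 CPM in Het and 92.5 and 104 CPM in WT. Flt4 (chromosome 11, 49609263 to 49652739, plus strand), the receptor for VEGF-C, was at 45.4, 39.6 and 45.8 CPM in KO, 53.8, 46.5 and 45.4 CPM in Het and 50.1 and 48.2 CPM in WT, with overlap of KO and Het (-0.16 ± 0.08, edgeR adjusted p = 0.438).

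Emcn had the second lowest value, -0.42 ± 0.16 (edgeR adjusted p = 0.340). Emcn (chromosome 3, 137341067 to 137432185, plus strand) was at 9.54, 13.2 and 15.2 CPM in KO, 18.1, 17.6 and 14.3 CPM in Het and 18.7 and 15.4 CPM in WT. KO 1-3 was its lowest library, KO 2-3 overlapped Het 2-5, and without KO 1-3 the value was -0.25 ± 0.13 (edgeR adjusted p = 0.638).

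**Figure D2:**
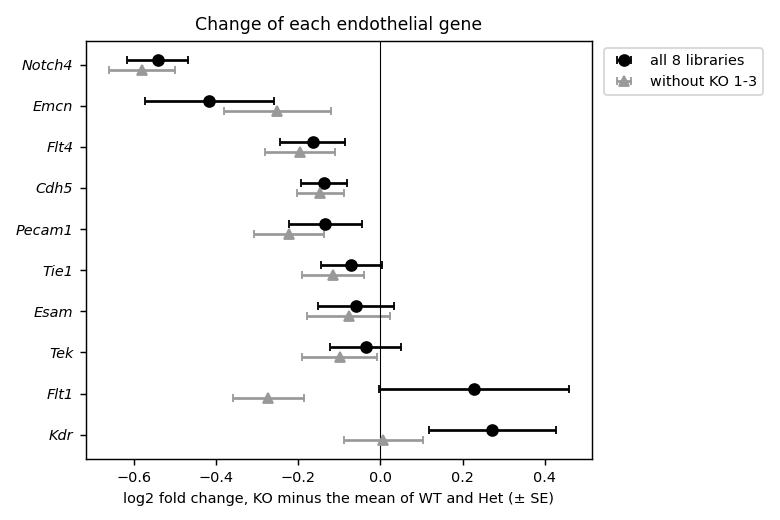
Log2 fold change of each gene, KO minus the average of WT and Het, with bars of 1 SE from edgeR; black circles use all 8 libraries and grey triangles leave out KO 1-3. Notch4 is lowest at -0.54 and is at -0.58 without KO 1-3, whereas Flt1 is at 0.23 with all libraries and at -0.27 without that library.

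Per kilobase of exon, the order of mean levels over the 8 libraries was Cdh5 (27.5 FPKM), Tie1 (11.8), Kdr (9.63), Tek (7.41), Esam (7.35), Pecam1 (6.33), Flt4 (5.69), Notch4 (4.23), Emcn (2.82) and Flt1 (2.68). Cdh5, at 24.3 to 30.3 FPKM, did not overlap any other gene, and the other neighbours in the order overlapped over libraries. Notch4, at 2.99 to 5.12 FPKM, overlapped both Flt4 (4.80 to 6.52 FPKM) and Emcn (1.76 to 3.47 FPKM). Exonic lengths are those of the deposited table and join all exons of a gene, which for Flt1 come to 13504 bases.

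To compare Notch4 with the rest of the endothelial RNA inside each library, its CPM was divided by that of Cdh5, the usual pan-endothelial marker. Before this and every other ratio was taken, 0.5 CPM was added to both genes. The ratio was 0.258, 0.240 and 0.248 in KO, 0.291, 0.303 and 0.331 in Het and 0.346 and 0.353 in WT libraries. The KO ratios lay below all others, and the 2 WT ratios above all others. On the log2 scale the mean was -2.01 ± 0.05 in KO (SD, n = 3), -1.70 ± 0.09 in Het (SD, n = 3) and -1.52 ± 0.02 in WT (SD, n = 2). KO lay 0.38 below WT and Het together, a fold of 0.768 (two-sided exact permutation test, p = 0.0357, which is the lowest possible with 56 splits, and 0.143 once adjusted by Benjamini-Hochberg for the 4 comparisons made). Between pairs of genotypes it was -0.49 in KO minus WT (exact permutation p = 0.2), -0.31 in KO minus Het (exact permutation p = 0.1) and -0.18 in Het minus WT (exact permutation p = 0.2), each the smallest p these numbers of libraries allow and each 0.2 after adjustment. With these numbers of libraries no adjusted p over the 4 comparisons could fall below 0.143, so a threshold of 0.05 could not be reached, and Notch4 was chosen with earlier results of these libraries known.

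With each of the other 8 genes in place of Cdh5, KO minus WT and Het together lay between -0.78 and -0.11. The KO libraries were below all others for 8 of the 9 partners, Cdh5 included. Notch4 by itself already separated the KO libraries, so its ratio to a gene that varied little does so too. The share over all genes as partners was not computed, so this count says nothing particular about the 9. The exception was Emcn: the log2 ratio of Notch4 to Emcn was 1.51 in KO 1-3 and 0.85 in both other KO libraries, against 1.00 to 1.37 in the WT and Het libraries. With Tie1 the KO ratios were close together, at 0.476, 0.489 and 0.477, against 0.589, 0.611 and 0.647 in Het and 0.765 and 0.665 in WT.

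**Figure D3:**
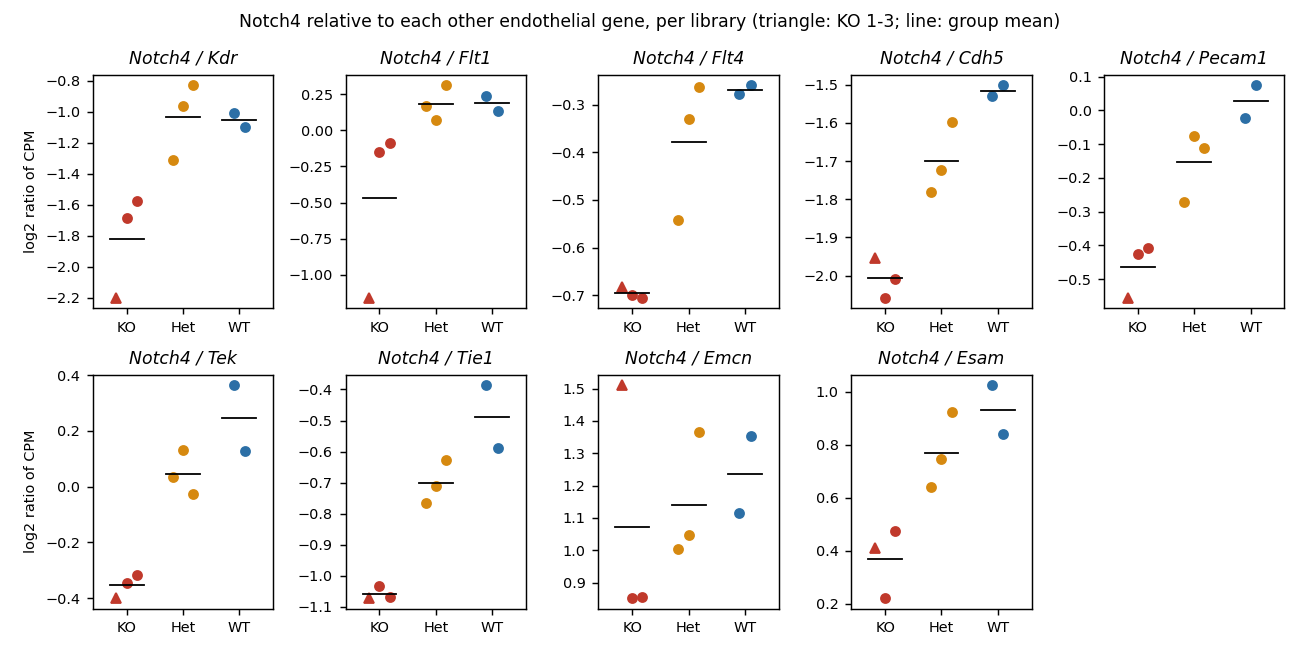
Log2 ratio of the CPM of Notch4 to that of each other gene, with 0.5 CPM added to both, per library, with KO, Het and WT from left to right, the triangle for KO 1-3 and lines for group means; each panel has its own axis. KO points lie below all others with every partner except Emcn, where KO 1-3 is highest at 1.51.

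The 4 lists of related genes show what surrounded Notch4. Of 19 other endothelial genes, 0 were called in any comparison by edgeR or DESeq2, where edgeR called at most 0.332% of all genes. Against the mean of WT and Het, edgeR gave 4 lower and 1 higher at an unadjusted p below 0.05. Of all genes 5.21% were lower at that level and 12% in either direction. The median was -0.05 and 12 of 19 lay below 0, beside 48.4% of all genes. Cd34, a surface sialomucin of endothelium and blood progenitors, was at 40.7, 44.4 and 52.2 CPM in KO, 59.7, 58.5 and 57.4 CPM in Het and 57.5 and 48.9 CPM in WT (-0.29 ± 0.09, edgeR adjusted p = 0.253). Tal1, a transcription factor of blood and early endothelium, was at 38.0, 43.2 and 32.1 CPM in KO, 29.7, 29.2 and 28.4 CPM in Het and 31.9 and 30.8 CPM in WT (0.32 ± 0.09, edgeR adjusted p = 0.232). These 2 had opposite signs, and their spans of KO and other libraries overlapped for Cd34 and came within 1 CPM for Tal1. The 8 primitive erythroid markers, from the lineage in which Tal1 also acts, summed to 4039 to 6431 CPM in KO, 2827 to 4602 CPM in Het and 2882 and 5831 CPM in WT; their part in these values was not tested.

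Of 15 endothelial transcription factor genes, 14 were tested and 0 were called in any comparison by edgeR or DESeq2. As edgeR called at most 0.332% of all genes and DESeq2 at most 0.911% lower, this says little about the list. Hhex, with 0 to 3 reads, was not tested. Against the mean of WT and Het the median was -0.09 and 9 of 14 lay below 0, beside 48.4% of all genes. At an unadjusted p below 0.05 edgeR gave 3 lower and 1 higher, beside 5.21% of all genes lower and 12% in either direction. The ETS factor gene Ets1 was at 62.7, 64.8 and 60.0 CPM in KO, 76.9, 70.1 and 73.6 CPM in Het and 74.9 and 67.0 CPM in WT (-0.21 ± 0.06, edgeR adjusted p = 0.240). Elk3, another ETS factor gene, was at 37.1, 34.4 and 33.5 CPM in KO, 44.5, 37.7 and 38.6 CPM in Het and 42.7 and 42.0 CPM in WT (-0.24 ± 0.08, edgeR adjusted p = 0.269). In both genes every KO library lay below all others by a small margin, and neither passed the threshold. The same held for Lmo2, at 44.4, 44.6 and 49.8 CPM in KO, 52.0, 52.9 and 59.2 CPM in Het and 50.2 and 63.2 CPM in WT. These are 3 of the 14 genes, beside 4.41% of all genes tested. Etv2, the gene with the highest value of the list (0.63), went the other way. It was at 7.01, 9.01 and 6.83 CPM in the KO libraries. The Het libraries were at 3.27, 3.75 and 6.27 CPM and WT at 3.80 and 7.13 CPM, so KO overlapped WT. Ets1 and Elk3 are also expressed outside endothelium in the embryo. The 15 genes summed to 328 to 333 CPM in KO, 348 to 386 CPM in Het and 367 and 374 CPM in WT, with KO below all others. Abundant genes such as Ets1 and Lmo2 weigh most in such a sum. How often sums of other gene lists separate the genotypes was not computed.

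Of 9 genes for VEGF and angiopoietin ligands and neuropilins, 1 was called, and in 1 comparison: Vegfb rose in KO against Het (0.53 ± 0.09, edgeR adjusted p = 0.0449), where 0.0615% of genes were called higher. Vegfb was at 52.8, 43.9 and 46.5 CPM in KO, 35.5, 31.0 and 33.1 CPM in Het and 46.1 and 47.2 CPM in WT, so the Het libraries were low and KO overlapped WT (0.03 ± 0.09 in KO minus WT). Nrp2, a co-receptor for VEGF-C, was at -0.15 ± 0.06 against the mean of WT and Het (edgeR adjusted p = 0.340). The list had a median of -0.02 there, and 5 of 9 values lay below 0, beside 48.4% of all genes.

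Of 22 other genes of the Notch pathway, 0 were called in any comparison by edgeR, which called at most 0.332% of all genes. Against the mean of WT and Het, 4 were lower and 1 higher at an unadjusted edgeR p below 0.05. Of all genes 5.21% were lower at that level and 12% in either direction. The median was -0.02 and 12 of 22 lay below 0, beside 48.4% of all genes. Hes5, a Notch target of neural progenitors, was at 11.4, 14.9 and 10.5 CPM in KO, 8.44, 7.97 and 7.48 CPM in Het and 8.29 and 7.49 CPM in WT. All KO libraries lay above all others for Hes5 (0.63 ± 0.14, edgeR adjusted p = 0.0985), as for 4.21% of all genes tested. DESeq2 called Hes5, and no other gene of the list, higher in this comparison, where it called 0.576% of all genes higher. Hey2, a Notch target of arterial endothelium and other tissues, was at 15.1, 18.4 and 17.5 CPM in KO, 19.5, 23.6 and 20.5 CPM in Het and 21.5 and 21.9 CPM in WT (-0.34 ± 0.10, edgeR adjusted p = 0.260). In Hey2 and Jag1, 2 of the 22, every KO library lay below all others, as in 4.41% of all genes tested. The summed level of the list was 1293 to 1375 CPM in KO, 1324 to 1376 CPM in Het and 1324 and 1349 CPM in WT, with overlap throughout. Without KO 1-3, an alternative chosen after seeing the data, edgeR made no other call in the 4 lists than Vegfb in KO minus Het.

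**Figure D4:**
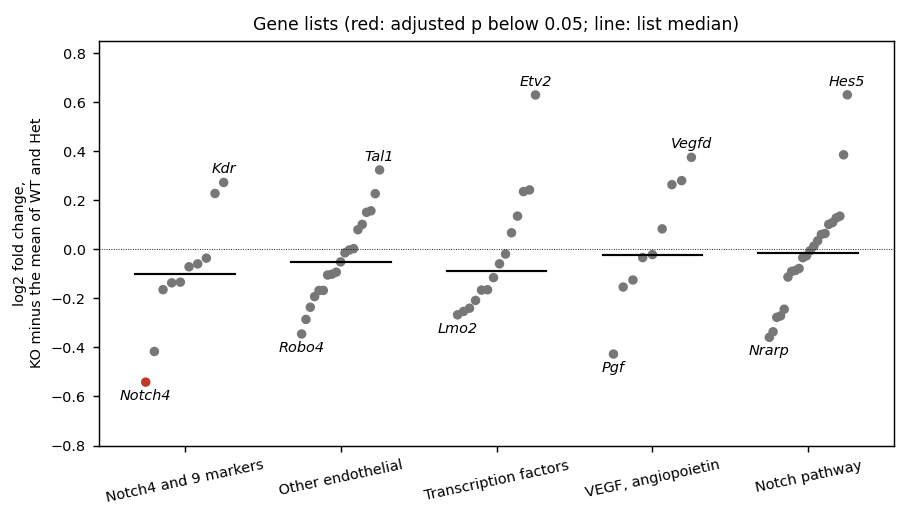
Log2 fold change, KO minus the average of WT and Het, of each tested gene in 5 lists; points are genes, red marks an adjusted p below 0.05 and lines are list medians. Notch4 at -0.54 is the 1 red point, and the medians lie between -0.10 and -0.02.

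Markers of other tissues were summed per library to show what moved along with Notch4. Of 4 lateral plate markers, Hand2, Foxf1, Tbx4 and Pitx1, the sum was 249 to 274 CPM in KO, 314 to 327 CPM in Het and 306 and 334 CPM in WT, with KO below all others. Mural markers summed to 169 to 216 CPM in KO, 202 to 236 CPM in Het and 203 and 239 CPM in WT. Somite markers were at 172 CPM in KO 1-3, 288 and 275 CPM in the other KO libraries, 250 to 270 CPM in Het and 243 and 256 CPM in WT, and presomitic mesoderm markers at 205 to 211 CPM in KO, 162 to 206 CPM in Het and 199 and 213 CPM in WT. Surface ectoderm markers were at 495 to 683 CPM in KO, 435 to 480 CPM in Het and 454 and 513 CPM in WT. Neural tube markers were at 102 to 121 CPM in KO, 100 to 116 CPM in Het and 91.3 and 117 CPM in WT, and blood cell markers at 13.8 to 17.0 CPM in KO, 12.5 to 15.6 CPM in Het and 13.3 and 13.9 CPM in WT. Pitx1 (-0.47 ± 0.07, edgeR adjusted p = 0.0281) and Tbx4 (-0.93 ± 0.16, at 0.0395 in the same edgeR test), genes of hindlimb mesoderm, were both called lower, beside 0.258% of all genes. Hand2 was at 70.0, 84.6 and 84.4 CPM in KO, 93.7, 106 and 98.9 CPM in Het and 93.2 and 93.0 CPM in WT. In Pitx1, Tbx4 and Hand2, 3 of the 4, every KO library lay below all others, as in 4.41% of all genes. Foxf1 went the other way, at 0.27 ± 0.14. The lateral plate sum was lower in every KO library than in any other library, and for somite markers KO 1-3 lay below and both other KO libraries above all Het and WT libraries. The part of either list in the Notch4 value was not tested, and how often sums of other gene lists separate the genotypes was not computed.

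Notch4 lies in a gene-dense stretch of chromosome 17, so the genes around it were examined. Of 34 other genes at least partly within 200 kb on either side, 11 lay wholly inside that window and passed the filter, and these were examined. None of the 11 was called in any comparison by edgeR or DESeq2. As edgeR called at most 0.332% of all genes in any comparison, this says little about the neighbours. Against the mean of WT and Het 1 of them, Ager, was lower at an unadjusted edgeR p below 0.05. Of all genes 5.21% were lower at that level and 12% in either direction. The median of the 11 was -0.10, and 8 of 11 lay below 0, beside 48.4% of all genes. The nearest tested gene downstream, Gpsm3, starts 1303 bases beyond the end of Notch4 and was at -0.14 ± 0.18, and the nearest upstream, BC051142, was at -0.55 ± 0.49 on 4 to 22 reads. Gm20462, the antisense gene annotated inside Notch4, had 0 reads in every library, and the strand setting of the counting is not given.

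**Figure D5:**
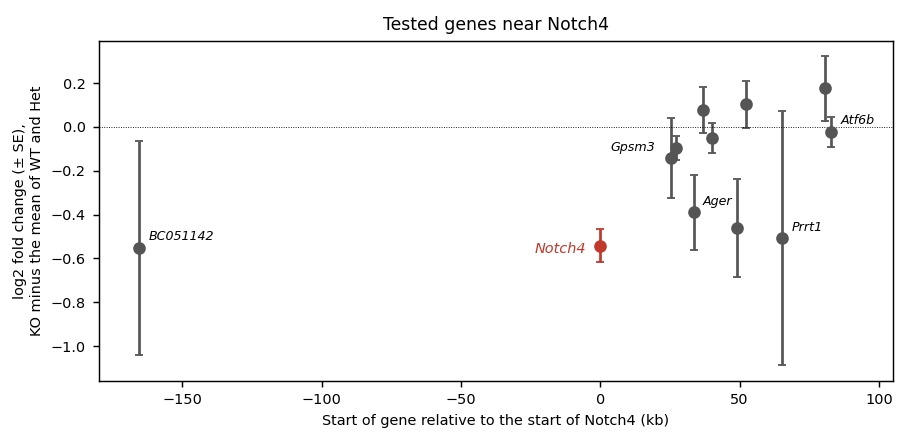
Log2 fold change with 1 SE, KO minus the average of WT and Het, against the start of each tested gene relative to the start of Notch4, in kb. Notch4 is in red at -0.54, and none of the 11 grey neighbours, which run from -0.55 to 0.18, was called, where 0.332% of all genes were.

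The genes with the pattern most like that of Notch4 over the 8 libraries were ranked by Pearson's r of log2(CPM + 0.5) among 11123 genes with a mean of at least 5 CPM, as a description. They were Hsd11b2 (0.967), Spock2 (0.963), Ptpru (0.959), Hdac8 (0.959) and Pex3 (0.951). None of these 5 is in the endothelial lists, which hold few of the genes ranked. Hsd11b2, Spock2 and Ptpru were called lower against the mean of WT and Het, beside 0.258% of all tested genes. The 5 were picked for following Notch4, itself low in KO, so these calls add no separate evidence. Spock2, an extracellular proteoglycan gene, was at 17.0, 17.5 and 19.1 CPM in KO, 36.5, 34.4 and 32.6 CPM in Het and 43.4 and 36.0 CPM in WT. The endothelial gene most like Notch4 among the 9 was Cdh5, at an r of 0.756 and rank 321, and Kdr was the least, at -0.305. For Cdh5 the most alike were Mmrn2 (0.987), an endothelial matrix gene of the list of other endothelial genes, Ldhb (0.966), Pspc1 (0.963), Ppic (0.957) and Abhd5 (0.957), and Notch4 was at rank 265. Such likeness joins differences between genotypes and between single libraries and carries no p-value.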

How the data were processed

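The authors deposited 1 table of raw counts of reads for each gene in each library, with gene positions and exonic lengths. Per the submitters' processing notes, the tools were HTSeq 0.6.1, HISAT2 2.0.1 and cutadapt 1.9.1, and the build was GRCm38 (mm10), with no roles stated. The strand setting and annotation release were not given in the sources used here. Per the labels, poly(A) RNA was made into libraries with a random-primed kit. Column names match the labels by genotype only, so columns were assigned to genotypes and not to single samples, and the 8 deposited FPKM columns were not used. FPKM values were computed from counts, totals and exonic lengths.

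Counts were tested with edgeR 4.0.16 (R 4.3.3): TMM scaling, default expression filter, quasi-likelihood test, 1 mean per genotype in 1 fit of 8 libraries, Benjamini-Hochberg adjustment over 16262 genes, two-sided. SEs were derived from the fold change and F statistic. Intervals cover counting error only, since PCR copies are not independent molecules. No replicate pair agreed within counting noise, so none were merged. The Notch4 to Cdh5 ratio was compared with exact permutation tests (SciPy 1.17.1). Alternatives were DESeq2 1.42.0, its size factors, no filter, fewer libraries, added terms and leaving out each library. The named genes are the 10 genes, list genes called or with the 2 smallest p, the nearest and called neighbours and the 5 most alike. Vegfa, Lmo2, Etv2 and Jag1 were named after their values were seen. Genes and lists were chosen with earlier results of these data known.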

Additional observations from a re-analysis of the deposited data

How the results depend on the processing

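The direction of Notch4 in KO was negative under every alternative run, in each comparison with KO and in Het minus WT, and none of the other 9 genes was called under any of them. What changed was the side of the threshold. The number of the 10 genes called in KO minus WT was 0, and it was 1, Notch4, with DESeq2, no filter on low counts, column set as a term and Xist level as a term; leaving out 1 library gave 0 to 1. In KO minus Het it was 0, and 1, Notch4, with DESeq2, edgeR with DESeq2 size factors, no filter and column set as a term; leaving out 1 library gave 0 to 1. In both, the call in those fits came without KO 1-3. Against the mean of WT and Het the number was 1, and 0 to 1 with 1 library left out. DESeq2 adjusted p-values of Notch4 were 1.17e-04 for KO minus WT, 0.00146 for KO minus Het and 4.69e-06 against the mean of WT and Het; over the edgeR fits that left out 1 library they ran from 0.0159 to 0.459, 0.0356 to 0.257 and 0.0102 to 0.0748. With only the libraries compared, KO minus WT gave 0.302 and KO minus Het 0.109; KO against the mean of WT and Het uses all libraries and has no such value. Of all genes, 54 were called against the mean of WT and Het, 204 by DESeq2, 514 with no filter and 9 to 62 with 1 library left out; KO minus WT gave 6, against 91, 205 and 1 to 28, and KO minus Het 31, against 159, 437 and 2 to 49, while Het minus WT gave 0, against 2, 11 and 0 to 1. KO minus WT gave 19 with column set and 21 with Xist level as a term and 1 with only the libraries compared, and KO minus Het gave 47 with column set and 10 with only the libraries compared. The cause of these shifts was not tested. With 1 library left out, Flt1 ran from -0.27 (without KO 1-3) to 0.45, Tek from -0.10 to 0.035 (without KO 2-2; 0.015 without WT 2-1) and Tie1 from -0.12 to 0.0073 (without KO 2-2), each with a change of sign. The Notch4 ratio in Het minus WT changed sign with Kdr as the partner (0.020). Leaving out 1 library gave -0.42 to -0.35 for the ratio to Cdh5 in KO against WT and Het together. No paired analysis was possible because the deposited columns carry none of the sample numbers in the labels, by which samples could be paired one to one. Column set, whose meaning the sources do not give, could be fitted as a term, and Notch4 then had an adjusted p of 0.0406 in KO minus WT, 0.0469 in KO minus Het and 0.0135 against the mean of WT and Het. Groups of 2 or 3 libraries limit what could be called, and a p above the threshold does not show that a gene did not differ.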
